A study of Mus musculus with 70 samples.

Results

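Of the 22824 non-control cDNA spots of the MPIP24k array, 73 were lower in HAB than in LAB mice in both the nucleus accumbens (NAc) and the cingulate cortex (Cg) without being lower to the same extent over the remaining brain regions. HAB and LAB are mouse lines bred from the CD-1 (ICR) stock for high and for low anxiety-related behavior. For each of 7 regions, a single pool of RNA from 6 HAB males and a single pool from 6 LAB males, all 10 weeks old, were set against each other on 10 arrays. HAB carried the Cy3 dye on 5 of these and the Cy5 dye on the other 5. The regions were NAc, Cg, the paraventricular nucleus (PVN) and the supraoptic nucleus (SON) of the hypothalamus, and the basolateral (BLA), central (CeA) and medial (MeA) amygdala, which gave 70 arrays. Every SD and p-value therefore measures the spread between hybridizations of the same pools and not the spread between animals.

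The spots were chosen by their measured values. Values are log2 ratios with HAB on top, and a negative value means lower in HAB. A spot is counted as lower in a region when its mean is at most -0.379, which is 1.3-fold, and all 10 arrays lie below 0. This held for 307 spots in NAc (1.35% of all spots), for 189 in Cg (0.828%) and for 88 in both (0.386%). A further condition, that the mean of the 5 other region means lies above -0.3, removed 12 of the 88, and 1 spot each of Mobp and Cnp, genes of oligodendrocytes, and of Rarb, a retinoic acid receptor found in striatal neurons, was left out by name. The low values in NAc and Cg are therefore a description of the selection and carry no test. At the edges of the rule, the 3 members with the smallest difference in NAc had means of -0.46, -0.46 and -0.49 there (an unnamed EST, Dimt1 and a clone from embryo head), and just outside lay Slc1a3 with -0.28. In Cg the edge was formed by the same clone from embryo head with -0.38, Prph with -0.39 and Prmt2 with -0.39, and outside it by Zc3h11a with -0.37 and the unc5 homolog 2 with -0.32. For the mean of the 5 other regions, Idh1 with -0.28, 6330403K07Rik with -0.21 and Srr with -0.16 were just inside, whereas an unnamed EST with -0.41, the sulfide quinone reductase-like spot with -0.44 and a metallothionein-I activator spot with -0.47 were just outside.

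NAc and Cg are both forebrain targets of dopaminergic and limbic projections. The NAc, the ventral part of the striatum, is known for its role in reward and motivated behavior and consists mainly of inhibitory spiny projection neurons, whereas the Cg is a layered cortex with excitatory projection neurons that takes part in the control of emotion and pain. Both were punched at the same rostral level of the brain, and the other 5 regions lie further caudally. A cDNA array reports the amount of labelled RNA that binds to a spotted clone, so a spot can be read as a gene only as far as its clone is correctly named. The regional labels were compared with markers. Of 17 measured genes of striatal neurons, 8 had their highest level in NAc, and of 12 measured genes of excitatory forebrain neurons, 6 had it in Cg. The share of all spots with their highest level in these regions was not counted, so these counts do not test the labels. Levels also differed between regions scanned at different times, as described further on. In such bulk punches, fewer cells of a type and less RNA per cell cannot be told apart.

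The array names 23 of the members as genes, 27 as RIKEN clones with an identifier, 10 as expressed sequence tags (ESTs), 7 by a sequence accession and 5 as cDNA clones or hypothetical proteins, and 1 has no name. Names or identifiers led to a current gene symbol for 51 members. The promoters of 4 members are shown because they stand for the kinds of pattern described further on: Chd4 and Rtn4r for the brightest spots with a shared profile over the regions, Gpx4 for spots that were dim on part of the arrays, and Srr for a gene with a further low spot. Each runs from 250 bases before to 50 bases after the gene start in RefSeq, 5′ to 3′ on the strand of the gene, at chr6:125095731-125096030 (Chd4, plus strand), chr16:18127392-18127691 (Rtn4r, plus strand), chr10:80046916-80047215 (Gpx4, plus strand) and chr11:74925899-74926198 (Srr, minus strand) of GRCm38.p6. Capitals mark every GC box, the letters GGGCGG on either strand, including overlapping ones.
Chd4: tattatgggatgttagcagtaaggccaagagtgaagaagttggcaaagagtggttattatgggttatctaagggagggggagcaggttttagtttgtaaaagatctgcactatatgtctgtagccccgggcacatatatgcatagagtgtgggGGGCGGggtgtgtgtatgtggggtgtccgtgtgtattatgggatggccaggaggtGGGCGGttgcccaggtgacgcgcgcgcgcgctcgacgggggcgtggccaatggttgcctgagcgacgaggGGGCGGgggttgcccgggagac
Rtn4r: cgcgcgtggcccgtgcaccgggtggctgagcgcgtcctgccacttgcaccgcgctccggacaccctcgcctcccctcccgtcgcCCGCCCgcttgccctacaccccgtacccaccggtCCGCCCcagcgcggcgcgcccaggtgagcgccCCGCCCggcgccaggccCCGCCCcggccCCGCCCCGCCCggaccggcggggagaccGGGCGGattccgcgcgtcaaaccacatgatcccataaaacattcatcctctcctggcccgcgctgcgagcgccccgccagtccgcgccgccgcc
Gpx4: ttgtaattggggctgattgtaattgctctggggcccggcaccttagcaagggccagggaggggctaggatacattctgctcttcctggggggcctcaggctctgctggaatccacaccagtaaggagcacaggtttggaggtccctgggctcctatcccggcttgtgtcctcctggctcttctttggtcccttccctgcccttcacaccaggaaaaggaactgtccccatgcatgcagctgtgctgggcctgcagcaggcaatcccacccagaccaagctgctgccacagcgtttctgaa
Srr: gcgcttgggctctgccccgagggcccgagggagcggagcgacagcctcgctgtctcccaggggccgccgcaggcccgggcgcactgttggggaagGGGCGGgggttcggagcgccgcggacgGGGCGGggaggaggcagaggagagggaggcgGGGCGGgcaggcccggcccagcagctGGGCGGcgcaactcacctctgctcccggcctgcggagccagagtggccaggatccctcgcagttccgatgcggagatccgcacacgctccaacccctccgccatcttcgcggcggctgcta
The GC box occurred 3 times in the window of Chd4, 7 times in that of Rtn4r, 4 times in that of Srr and not in that of Gpx4. Over the members, 39 symbols had a promoter in the table, and 28 of these 39 (71.8%) held at least 1 GC box, against 35.9% of 27025 genes. The CCAAT box, searched as CCAAT on both strands, was present in 18 of 39 (46.2%) against 37.9%, and the letters TATAAA in 5 of 39 (12.8%) against 14.2%. The 27025 genes were not limited to genes of the array, so these shares compare unlike sets of genes. These matches are a description of the letters in the windows only.

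Over the 73 members, the region means in NAc ran from -1.40 to -0.46 with a median of -0.94, and in Cg from -1.12 to -0.38 with a median of -0.74. The median over all non-control spots was 0.0083 in NAc and 0.0044 in Cg. On the single arrays, the median of the members lay between -0.97 and -0.76 in NAc and between -0.78 and -0.52 in Cg. The sign on every array was fixed by the rule, and the SD over arrays was 0.07 in each region. In NAc the arrays with HAB in Cy3 had medians of -0.97 to -0.87 and those with HAB in Cy5 of -0.88 to -0.76, so that both orientations barely overlapped. In Cg they ran from -0.78 to -0.67 for Cy3 and from -0.72 to -0.52 for Cy5. Single members depended on it too: in NAc 13 members, and in Cg 11, had orientation means more than 0.5 apart.

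**Figure D1:**
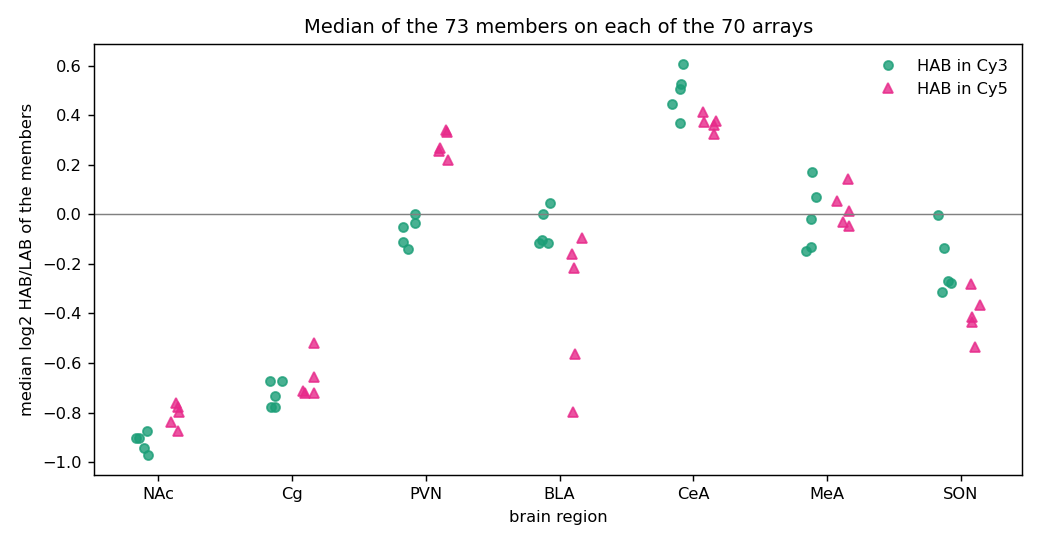
Median log2 HAB/LAB of the 73 members on each of the 70 arrays, by brain region, with circles for arrays with HAB in Cy3 and triangles for HAB in Cy5. All 10 arrays of NAc (-0.97 to -0.76) and of Cg (-0.78 to -0.52) lie below all arrays of CeA (0.32 to 0.61).

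In the other regions the members were not uniform around 0, although the rule asked only for their average. The median of the members was 0.34 in CeA, 0.15 in PVN, 0.02 in MeA, -0.17 in BLA and -0.30 in SON. In CeA all 10 array medians lay above 0 (0.32 to 0.61), and 65 of the 73 members had a positive mean. In SON all 10 array medians lay below 0 (-0.54 to -0.0032), and 67 members had a negative mean. The orientations of the dyes differed in most of these regions. The medians for HAB in Cy3 against Cy5 were 0.51 and 0.32 in CeA, -0.22 and -0.40 in SON, -0.06 and 0.22 in PVN, and -0.02 and -0.35 in BLA, and MeA had 5 array medians on each side of 0. By the same criterion as in NAc and Cg, 25 of the 73 members (34.2%) were counted as higher in HAB in CeA, against 0.456% of all spots. In PVN 1 member (1.37%) was counted as higher, against 0.254% of all spots. In SON 10 (13.7%) were counted as lower, against 0.237%, and in BLA 4 (5.48%), against 0.166%. A bright spot can meet this criterion more easily than a dim one, so these shares are a description.

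Whether the line difference of a spot was unequal among PVN, BLA, CeA, MeA and SON was tested in limma. The fit covered the 50 arrays of these regions, with the dye orientation as a covariate. Of the members, 30 of 73 (41.1%) passed at an adjusted p below 0.05, against 258 of all 22824 spots (1.13%). The rule limits the average of these regions but not the differences between them. The test is still not independent of the rule, because a bright spot can pass both more easily than a dim one. These shares are therefore a description. In all 30, CeA had the highest of the 5 means and BLA or SON the lowest. Their medians were -1.12 in NAc and -0.87 in Cg, against 0.17 in PVN, -0.34 in BLA, 0.65 in CeA, 0.0007 in MeA and -0.42 in SON. The 43 members that did not pass had medians of -0.73 in NAc and -0.61 in Cg, against 0.07 in PVN, -0.05 in BLA, 0.20 in CeA, 0.02 in MeA and -0.17 in SON. With the replicate number within a region as a block in the fit, 14 of the 73 passed (19.2%), against 74 of all spots (0.324%). Without the arrays of any 1 replicate number between 13 and 19 members did, against 70 to 102 of all spots.

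**Figure D2:**
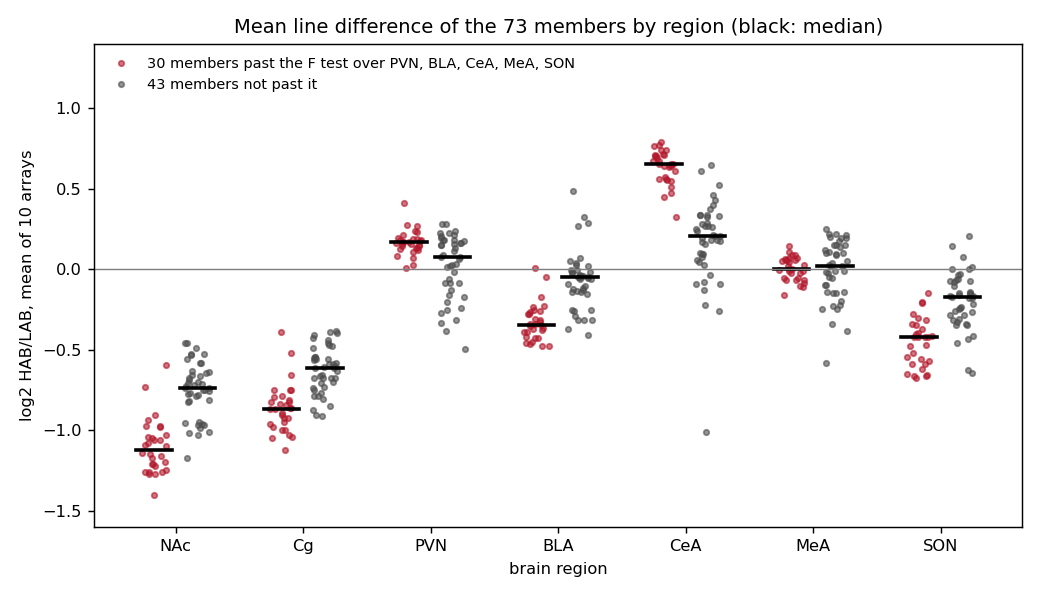
Mean log2 HAB/LAB over 10 arrays of each of the 73 members in the 7 regions, in red for the 30 members past the F test over PVN, BLA, CeA, MeA and SON and in grey for the 43 others, with the median of each set in black. In CeA the red members lie between 0.32 and 0.79 and the grey members between -1.01 and 0.65, and in NAc the red members lie between -1.40 and -0.60 and the grey members between -1.17 and -0.46.

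The members with a shared profile were among the brightest spots of the array. The median brightness percentile of the 30, taken over all non-control spots, was 99.4, against 92.5 for the 43 others. Brightness is the mean log2 intensity of both lines. Of the 195 spots with a brightness above 13, 24 (12.3%) were members, against 1 of 15242 spots with a brightness below 9. The non-members of the brightest class shifted in the same directions, with medians of -0.24 in NAc, -0.21 in Cg, 0.31 in CeA and 0.15 in PVN, whereas those with a brightness of 12 to 13 had 0.09 in NAc, 0.09 in Cg and -0.16 in CeA, and those below 9 had -0.0061 in NAc, 0.0017 in Cg and 0.04 in CeA. The part of brightness in the shared profile was not tested.

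Among the cytoskeletal members, Prph, an intermediate filament protein mainly of peripheral and some central neurons, was close to the limit, with -0.60 ± 0.20 in NAc and -0.39 ± 0.22 in Cg (mean ± SD, n = 10 arrays each, here and for the following members). In CeA it was above 0 on all 10 arrays (0.70 ± 0.33; F test adjusted p = 0.0043, limma). Sh3kbp1, an adaptor that links receptors to endocytosis, had -0.69 ± 0.17 in NAc and -0.79 ± 0.28 in Cg, and its means in the other regions stayed between -0.14 and 0.17. Lpp, a protein of focal adhesions, had -0.96 in NAc and -0.67 in Cg, and Radil, an effector of the small GTPase Rap, -0.58 and -0.39.

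Of the members that act in membranes and protein sorting, Scoc, a short coiled-coil protein of the Golgi that takes part in autophagy, had single-array values with a lowest of -1.92, a median of -1.19 and a highest of -0.39 in NAc, and -1.44, -0.98 and -0.42 in Cg. The means were -1.21 ± 0.46 in NAc and -0.90 ± 0.30 in Cg. For Scoc, the dye orientations gave -1.6 for Cy3 and -0.82 for Cy5 in NAc, and -0.86 and -0.95 in Cg. On 2 of the 20 arrays of NAc and Cg its LAB channel was saturated, and the values there are bounds. Its level, the mean log2 intensity in 1 line, was 14.4 in HAB and 15.6 in LAB in NAc, and 14.4 in HAB and 15.3 in LAB in Cg. Tpd52, a coiled-coil protein of membrane traffic, followed with -1.06 ± 0.41 in NAc and -0.79 ± 0.32 in Cg, and Tor1a (dystonia 1), an ATPase of the endoplasmic reticulum and the nuclear envelope, with -0.95 ± 0.34 and -0.66 ± 0.29. The dye orientations of Tpd52 differed, with -1.42 for Cy3 and -0.71 for Cy5 in NAc, and -1.07 and -0.52 in Cg. Those of Tor1a were -1.22 and -0.68 in NAc, and -0.91 and -0.42 in Cg. In CeA all 10 arrays lay above 0 for each of Scoc (0.70), Tpd52 (0.69) and Tor1a (0.65). Scoc (adjusted p = 0.0045) and Tpd52 (adjusted p = 8.6e-05) passed the F test in limma, and Tor1a (0.078) did not. The authors' ratios gave smaller differences for Tpd52 (-0.53 in NAc and -0.42 in Cg) and for Tor1a (-0.33 and -0.36). Bloc1s2, a subunit of a complex for lysosome-related organelles, also passed (adjusted p = 0.025, limma) and had -1.10 in NAc and -0.75 in Cg. Further members of this group were Snx32, a sorting nexin (-1.17 in NAc and -0.85 in Cg), Yif1a of traffic between endoplasmic reticulum and Golgi (-0.81 and -0.70), Tomm20, a receptor of the import pore of mitochondria (-0.82 and -0.74), Ipo11, a nuclear import receptor (-0.72 and -0.42), and Emc4 of the membrane insertion complex (-0.53 and -0.49).

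Among the members of the nucleus, Chd4, the ATPase of the nucleosome remodelling and deacetylase complex, had a lowest value of -1.36, a median of -0.91 and a highest of -0.77 in NAc, and -1.71, -0.95 and -0.37 in Cg. Its means of -0.97 ± 0.19 in NAc and -0.98 ± 0.42 in Cg were nearly equal, and so were the means of both dye orientations in NAc, with -0.98 for Cy3 and -0.97 for Cy5. In Cg the orientations of Chd4 gave -0.815 for Cy3 and -1.14 for Cy5. In CeA it was above 0 on all 10 arrays (0.63 ± 0.42), in BLA it averaged -0.48 and in SON -0.48 (F test adjusted p = 0.00062, limma). The size of the difference depended on the normalization, with -0.62 in NAc and -0.53 in Cg after print-tip loess and -0.50 and -0.31 in the authors' ratios. E2f4, a transcription factor of the E2F family, had -1.27 ± 0.24 in NAc and -0.84 ± 0.20 in Cg (F test adjusted p = 9.7e-05, limma), and Chtf18, a component of an alternative clamp loader in DNA replication, -1.09 ± 0.39 and -0.89 ± 0.33 (0.014, limma). The remaining 6 members of this group did not pass the F test. They were Ssbp4 (-0.97 in NAc and -0.87 in Cg), Zfp516 (-0.77 and -0.61), Rbmxl1 (-0.72 and -0.66), Cebpg, a transcription factor of the C/EBP family (-0.73 and -0.44), the arginine methyltransferase Prmt2 (-0.66 and -0.39), and Dimt1, a methyltransferase of ribosomal RNA (-0.46 and -0.56).

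**Figure D3:**
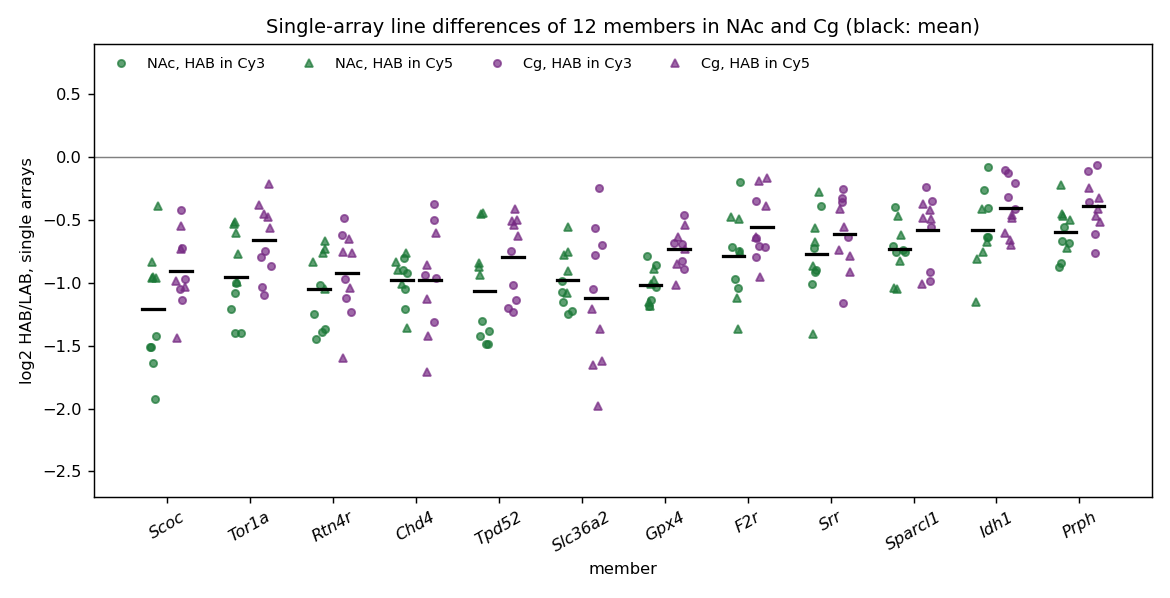
Log2 HAB/LAB of 12 members on single arrays in NAc (green) and Cg (purple), with circles for HAB in Cy3, triangles for HAB in Cy5 and a black line for the mean of 10 arrays. All points lie below 0, as the rule demands, and for Slc36a2 the triangles lie lower than the circles in Cg.

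The receptors and transporters among the members were Rtn4r, Slc36a2, F2r and Clcn2. Rtn4r, the receptor through which Nogo and other myelin proteins limit the growth of axons, had a lowest value of -1.45, a median of -1.04 and a highest of -0.67 in NAc, and -1.6, -0.87 and -0.48 in Cg. The level in NAc was 14.5 in HAB and 15.5 in LAB, and in Cg 14.3 in HAB and 15.2 in LAB, which gave -1.05 ± 0.30 and -0.92 ± 0.34. This difference was nearly lost in the authors' ratios, where Rtn4r had -0.14 in NAc and -0.03 in Cg. Its dye orientations gave -1.3 for Cy3 and -0.81 for Cy5 in NAc, and -0.885 and -0.96 in Cg. Slc36a2 (tramdorin 1), a proton-coupled transporter of small amino acids, was the member with the lowest mean in Cg, with -1.12 ± 0.55 there and -0.97 ± 0.22 in NAc. In Cg its dye orientations differed, with -0.67 for Cy3 and -1.56 for Cy5, and in NAc print-tip loess gave -0.60 and the authors' ratios -0.61. F2r, the thrombin receptor PAR1, had -0.79 ± 0.35 in NAc and -0.55 ± 0.27 in Cg, and the chloride channel Clcn2 had -0.56 ± 0.31 and -0.59 ± 0.37. Rtn4r (adjusted p = 0.039) and Slc36a2 (0.013) passed the F test in limma, F2r (0.60) and Clcn2 (0.86) did not.

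Gpx4, the selenoenzyme that reduces lipid hydroperoxides in membranes, was the most even of the metabolic members. Its single arrays ran from -1.18 over a median of -1.02 up to -0.79 in NAc, and from -1.02 over -0.71 up to -0.46 in Cg. The means were -1.02 ± 0.14 in NAc (2.03-fold lower in HAB), the smallest SD of any member there, and -0.73 ± 0.17 in Cg (1.66-fold). Both dye orientations gave nearly the same value, with -0.999 for Cy3 and -1.04 for Cy5 in NAc, and -0.71 and -0.76 in Cg. SON had -0.42 ± 0.20 and MeA 0.15. Idh1, the cytosolic isocitrate dehydrogenase that yields NADPH, had -0.58 ± 0.31 in NAc and -0.41 ± 0.21 in Cg, and it was the member furthest below 0 in CeA, with -1.01 ± 0.68 (9 of 10 arrays below 0). Its dye orientations differed, with -0.40 for Cy3 and -0.76 for Cy5 in NAc, and -0.23 and -0.58 in Cg. Srr, serine racemase, which makes the NMDA receptor co-agonist D-serine, had -0.77 ± 0.32 in NAc and -0.61 ± 0.29 in Cg. Ethe1, a mitochondrial sulfur dioxygenase, had -0.63 and -0.77, and Prkaa1, a catalytic subunit of the AMP-activated kinase, -0.75 and -0.68. None of these 5 passed the F test, with adjusted p-values from 0.091 (Idh1) to 0.935 (Srr) in limma.

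Of the 2 members of the extracellular matrix, Sparcl1 (hevin), which astrocytes secrete and which is known to promote the formation of excitatory synapses, had a lowest value of -1.05, a median of -0.74 and a highest of -0.40 in NAc, and -1.01, -0.49 and -0.24 in Cg. The level was 10.3 in HAB and 11 in LAB in NAc, and 10.7 in HAB and 11.2 in LAB in Cg. The means of -0.73 ± 0.21 and -0.58 ± 0.28 were alike in both dye orientations (-0.67 for Cy3 and -0.80 for Cy5 in NAc). Loxl3, a lysyl oxidase that cross-links matrix proteins, had -0.97 ± 0.45 in NAc and -0.91 ± 0.28 in Cg. Camk1g, a calcium/calmodulin-dependent kinase, had -0.64 ± 0.41 and -0.61 ± 0.44.

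Among the RIKEN clones and other spots with a symbol, Rnf141 (a RING finger protein) had -1.17 ± 0.20 in NAc and -1.04 ± 0.23 in Cg, Mturn -1.22 and -0.86, Pamr1 -1.26 and -0.87, Dnajc24 -1.14 and -0.96, 2510009E07Rik -1.21 and -0.79, E230013L22Rik -1.08 and -0.86, Pcid2 -1.04 and -0.82, Tmem159 -0.98 and -0.82, and 1500004A13Rik -0.94 and -0.66, and all 9 passed the F test, 1500004A13Rik barely (adjusted p = 0.0499, limma). For Rnf141 in NAc, print-tip loess gave -0.78 and the authors' ratios -0.75. Tmem50b (-1.01 and -0.90), Olfr1344 (-0.78 and -0.68), 1700113A16Rik (-0.83 and -0.63), Phtf2 (-0.70 and -0.68), Stra6l (-0.75 and -0.54), 6330403K07Rik (-0.71 and -0.55) and Wdr45b (-0.53 and -0.59) did not. The lowest value in NAc of any member belonged to a clone from adult spinal cord, with -1.40 in NAc and -0.997 in Cg. It is 1 of 22 members without a symbol, of which 11 passed the F test. These include W33290 (-1.25 and -1.05), AI841968 (-1.20 and -1.03), an EST weakly similar to a spliceosomal protein (-1.27 and -0.95), which had the smallest adjusted p of the F test (1.6e-05, limma), and a polypeptide GalNAc transferase (-1.03 and -0.82).

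Whether the low value belonged to the gene or to the single spot was examined in further spots of the same genes, which the rule did not use. Such spots were present for 27 members, 51 spots in all. Their median was 0.01 in NAc and -0.06 in Cg, with 25 below 0 in NAc and 29 below 0 in Cg. None of the 51 was below 0 on all 20 arrays of both regions, and 3 had both means at or below the limit of -0.379. Most were dim, and 17, from 13 genes, exceeded the empty spots on at least 15 of the 20 LAB channels. A channel exceeded the empty spots when it was above their median plus 2 median absolute deviations. The median of the 17 was 0.01 in NAc and -0.08 in Cg. The 4 further spots of Chd4 had -0.40, -0.21, -0.11 and 0.12 in NAc and -0.37, 0.04, 0.26 and 0.09 in Cg. Further spots of Tpd52 (0.08 in NAc and 0.44 in Cg), F2r (0.07 and 0.30), Rnf141 (0.05 and -0.18) and E2f4 (0.10 and -0.07) were near or above 0. Of these, only the Rnf141 spot reached the 15 LAB channels, with 20, against 14 for Tpd52, 8 for E2f4 and 4 for F2r. Of the Chd4 spots, only that with -0.21 in NAc reached them, with 16. Dimness does not apply to every further spot. With 20 LAB channels each, spots of Prkaa1 (0.05 in NAc and -0.06 in Cg), Lpp (0.17 and -0.13) and Tmem50b (0.01 and 0.37) were not low. Their brightness was above that of the member, with 11.3 against 10.6, 11.1 against 10.1 and 10.9 against 9.95. Of the 17, 3 had both means at or below the limit, among them a spot of Srr as bright as its member (9.69 and 9.68).

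The 3 further spots with both means low belonged to Sparcl1, Srr and the spinal cord clone. The second spot of Sparcl1 had -0.79 ± 0.63 in NAc (10 of 10 arrays below 0) and -0.56 ± 0.56 in Cg (9 of 10), close to the values of the member. One further spot of Srr had -0.87 ± 0.43 in NAc (10 of 10) and -0.45 ± 0.57 in Cg (8 of 10), whereas 2 others had 0.13 and -0.15 in NAc and -0.15 and 0.04 in Cg. The second low spots of both genes lay in column 12 of their print-tip block, a position that is described further on. A further spot of the spinal cord clone had -0.67 in NAc and -0.62 in Cg, with 8 and 9 arrays below 0.

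The position on the slide, which the rule did not use either, was uneven. Each of the 48 print-tip blocks has 24 rows and 21 columns, and 30 of the 73 members (41.1%) lay in column 12, which holds 5.05% of all non-control spots. No other column had more than 6 members. Among the members in column 12 were Gpx4, F2r, Clcn2, Idh1, Prph, Tor1a, Tomm20, Bloc1s2, Emc4, Ipo11, Prmt2 and Dimt1. Chd4, Rtn4r, Tpd52, Scoc, Slc36a2 and the members of Sparcl1 and Srr lay in other columns. The non-members of column 12 had medians of -0.04 in NAc and -0.02 in Cg, and 95 spots of that column were counted as lower in NAc, against 32 in column 13, the next highest. By blocks, 38 members (52.1%) lay in 6 blocks with 12.6% of the spots. In 15 members (20.5%) the spot directly above or below in the same column was a member too, although only 0.57% of all spots lie next to a member in this way. The 115 non-members in such a place had medians of -0.15 in NAc and -0.13 in Cg.

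One run of low spots, chosen after its values were seen, lay in column 12 of block 27. There, Arid2 in row 11 (-0.84 in NAc and -0.56 in Cg), which is no member, 2510009E07Rik in row 12 (-1.21 in NAc and -0.79 in Cg), Camk1g in row 13 (-0.64 and -0.61), 1700113A16Rik in row 14 (-0.83 and -0.63) and Lpp in row 15 (-0.96 and -0.67) were followed by Cnp in row 16 (-1.36 and -0.99), Mobp in row 17 (-1.22 and -0.89), the further spot of Srr in row 18 (-0.87 and -0.45) and AI845066 in row 19 (-1.20 and -0.97). Of these neighbours, AI845066, Cnp and Mobp had the highest brightness, with 15.4, 15.0 and 14.6. Outside column 12, 43 members remained, with medians of -0.82 in NAc and -0.77 in Cg. The part of the position in these values was not tested.

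**Figure D4:**
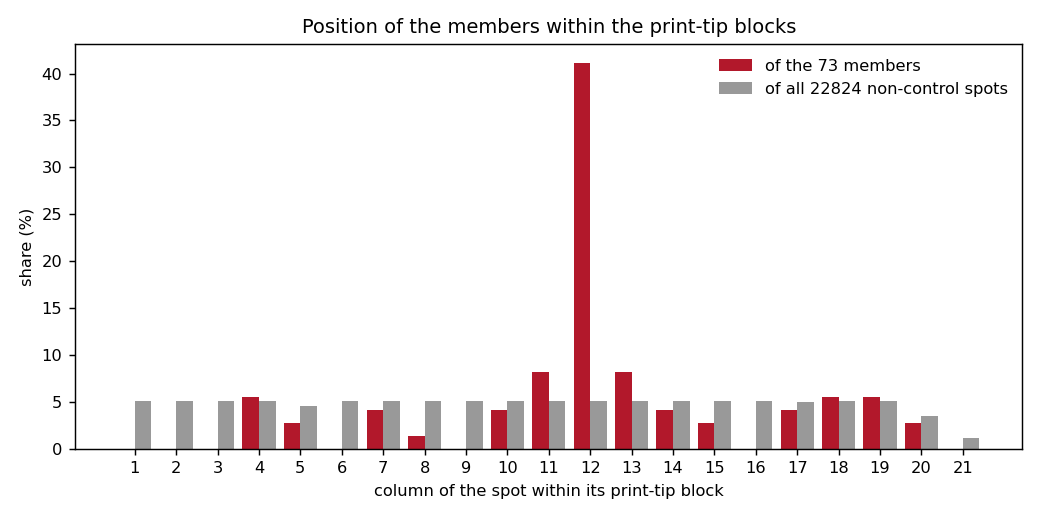
Share of the 73 members (red) and of all 22824 non-control spots (grey) in each of the 21 columns within the print-tip blocks. Column 12 holds 41.1% of the members and 5.05% of all spots.

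The conditions of the rule were also applied to the control spots and to the spots that the array names as empty. Of 1170 empty spots, 7 (0.598%) met the conditions that were set on the members, and so did 1 of 198 named control spots. Among the non-control spots, 76 (0.333%) met them before genes were set aside. All 8 of these control positions lay in columns 20 and 21 of block 29, with means of -0.86 to -0.67 in NAc and -0.69 to -0.50 in Cg. The 7 empty positions were bright in NAc, MeA, Cg and SON, at 2.49 to 3.96 (log2) above the array median of the non-control spots. In PVN, BLA and CeA they lay at -1.84 to 0.75. Their share is therefore not a background rate of spots without signal. The Srr member lies in column 20 of the same block, in row 6. The empty spot above it, in row 5, had -0.73 in NAc and -0.60 in Cg, and the empty spot below it, in row 7, had -0.78 and -0.60, against -0.77 and -0.61 for Srr itself. Of the 73 members, 4 have an empty spot among their 8 neighbours. The part of these neighbours in the value of Srr was not tested.

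The brightness of the spots by region was a further measure. It is not independent of the rule, because a bright spot can meet the demand on all 10 arrays of a region more easily than a dim one, and it is given as a description. The level of a spot, scaled between arrays by quantiles, was compared between NAc and Cg and the 5 other regions in limma over all 70 arrays, with the dye orientation as a covariate. At an adjusted p below 0.05, 41 of 73 members (56.2%) were counted as brighter in NAc and Cg, against 15.2% of all spots, and 1 as dimmer, against 11.6% of all spots. The dimmer one was Rtn4r, by -0.32 ± 0.08 (SE). The differences furthest above 0 were those of 6330403K07Rik (2.44), Zfp516 (2.16), Gpx4 (2.15 ± 0.15, SE), Yif1a (2.11) and F2r (2.00 ± 0.11, SE). Against MeA and SON alone, 5 members (6.85%) were counted as brighter in NAc and Cg, against 3.96% of all spots, and 2 (2.74%) as dimmer, against 3.40%.

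This brightness difference separated groups of regions other than those of the rule. The level of Gpx4 was 12.3 in HAB and 13.3 in LAB in NAc, and 12.7 in HAB and 13.5 in LAB in Cg. It was as high in MeA (13.1 in HAB and 13.0 in LAB) and SON (12.9 in HAB and 13.4 in LAB), but 9.51 in HAB and 9.49 in LAB in PVN, 9.12 and 9.17 in BLA, and 9.24 and 9 in CeA. Cebpg, Tomm20, Idh1, F2r and Yif1a had the same split. Over the members, 29 were brighter by at least 1 on the log2 scale in NAc, MeA, Cg and SON than in PVN, BLA and CeA, against 4.38% of all non-control spots, and 14 by at least 2. For these 29, the medians were -0.76 in NAc, -0.61 in Cg, -0.02 in PVN, -0.06 in BLA, 0.18 in CeA, 0.09 in MeA and -0.22 in SON. The 8 control positions that met the rule were brighter in the same regions by 3.21 to 4.86, on levels centred on the median of each array. Of all 1170 empty spots, 8.89% were brighter there by at least 1 on this scale, with differences from -3.04 to 4.86. The arrays of PVN, BLA and CeA were the first to be scanned and those of NAc, MeA, Cg and SON the last, so that these groups of regions and the time of scanning cannot be told apart. For members that were dim in PVN, BLA and CeA, the ratio there comes from spots closer to the empty ones.

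**Figure D5:**
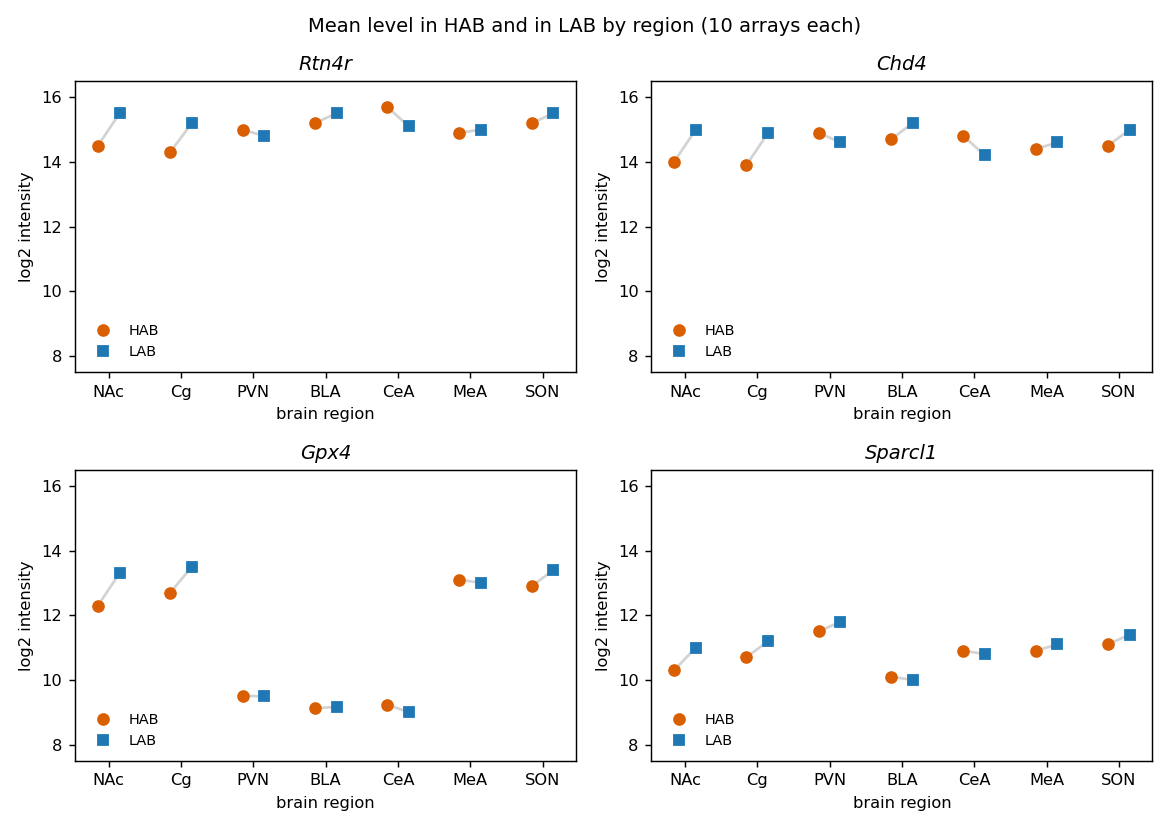
Mean level (log2 intensity, 10 arrays) of 4 members in HAB (orange circles) and in LAB (blue squares) by region. Rtn4r and Chd4 are bright in all 7 regions with HAB below LAB in NAc and Cg and above LAB in CeA, Gpx4 is at 12.3 to 13.5 in NAc, Cg, MeA and SON and at 9 to 9.51 in PVN, BLA and CeA, and Sparcl1 lies at 10 to 11.8 in all regions.

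The members also varied together over the arrays of the 5 other regions. Over these 50 arrays, the correlation of a member with the mean of the other members had a median of 0.52 and ran from -0.28 (Idh1) to 0.89 (Rnf141), with 18 members above 0.7 and 21 below 0.3. The arrays share their pools within a region, and bright members share their position in the loess smooth, so these values are a description. Rnf141 (0.89), E230013L22Rik (0.87), Pamr1 (0.85) and E2f4 (0.83) were the named members with the highest values, and Zfp516 (-0.0067), Clcn2 (0.0047) and Srr (0.05) were among those near 0.

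Spots with the same profile were found outside the members as well. The spot named after COII, a subunit of cytochrome oxidase encoded by mitochondrial DNA, had -1.27 in NAc, -0.76 in Cg, 0.68 in CeA, -0.42 in BLA and -0.35 in SON, at a brightness of 15.4. It was below 0 on all 10 arrays in NAc but on 5 of 10 in Cg, and so it was no member. The other spot of this name, at a brightness of 9.42, had -0.04 in NAc and 0.19 in Cg. The left-out spots of Cnp (-1.36 in NAc, -0.99 in Cg and 0.69 in CeA) and Mobp (-1.22, -0.89 and 0.72) followed it too. Most other spots of myelin genes did not, and the brightest Mbp spot had 0.46 in NAc and 0.64 in Cg. The 5 other Mobp spots lay between -0.06 and 0.20 in NAc and between -0.52 and 0.38 in Cg. Of these, only that with 0.155 in NAc reached 15 of the 20 LAB channels above the empty spots, with 18. The other Cnp spots, above them on 1 and 0 channels, had -0.69 and -0.01 in NAc and 0.08 and -0.17 in Cg. Such dim spots can show little. One Mbp spot had -1.07 in NAc and -0.41 in Cg.

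For comparison, lists of cell types and pathways were read with the brightest spot of each gene. The 26 measured genes of oligodendrocytes had medians of 0.10 in NAc and 0.0032 in Cg, with Cnp and Mobp the lowest. Astrocyte genes (19 measured) had -0.01 and 0.07, with Slc1a3 (-0.28 and -0.59) and S100b (-0.26 and -0.47) the lowest, and microglia genes (13) -0.02 and -0.21, with Ly86 (-0.48 and -0.12) and C1qb (-0.36 and -0.07). Striatal neuron genes (17) had -0.04 and 0.08, and Rarb (-0.76 and -0.52) and Penk1 (-0.41 and -0.42) were the lowest. Genes of excitatory forebrain neurons (12) had 0.06 and -0.30, led by Nrgn (-0.49 and -0.71). Genes of oxidative phosphorylation (65) had 0.04 and -0.09, led by Ndufv1 (-0.90 and -0.77) and Ndufs3 (-0.76 and -0.60), and cytosolic ribosomal proteins (68) 0.08 and -0.18, led by Rpl26 (-0.20 and -0.77). Of 34 measured genes of extracellular matrix and adhesion, Sparcl1 was the lowest and the only gene on any of the 16 lists whose brightest spot was a member. Counted as lower in both NAc and Cg were 2 of 26 oligodendrocyte genes, 1 of 17 striatal genes and 1 of 34 matrix genes, against 0.386% of all spots. The list genes were read at their brightest spot and most of all spots were dim, so these shares compare unlike sets.

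When the conditions were applied to each of the 21 pairs of regions, NAc with Cg gave 76 spots lower and 22 higher in HAB. The first of these counts is the selection itself and is no support for it. Next were NAc with SON (14 lower and 5 higher), Cg with SON (10 and 3) and PVN with MeA (7 and 0). Each pair was read against its own 5 remaining regions, and pairs share arrays, so no test compares these counts.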

How the data were processed

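RNA pools of HAB and LAB mice were compared on 70 arrays, 10 for each of 7 brain regions. The authors deposited, for each array, unnormalized scanner intensities on a linear scale, for each spot and its local background in each dye. Before labelling, the RNA had been amplified in rounds that began with oligo(dT) and went on with random primers. They also deposited a table of log2 ratios, normalized and filtered by them, which was used as an alternative. All its columns ran as HAB over LAB when compared with the intensities (correlations of 0.862 to 0.972). The dye of 1 channel was read from the scan image name on 3 arrays.

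Intensities were background corrected (normexp, offset 50) and normalized by loess (span 0.4) over all non-empty spots with limma 3.58.1 in R 4.3.3, and the median of each of 48 print-tip blocks was set to 0. The local background was 0 for 79.8% of values. Control and empty spots (1368 of 24192) were left out. The arrays of a region were averaged within each dye orientation and then over both. Levels are the brightness, scaled between arrays by quantiles, plus or minus 0.5 of the log2 ratio. The median intensity of an array was 134 at the lowest and 2430 at the highest (empty spots: 40 and 940), and 29 of 10220 member values were saturated. The number of arrays limits the precision.

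The members and gene lists were chosen with earlier results of these data known. Both limma fits were adjusted over all non-control spots with the Benjamini-Hochberg method, and were tested on simulated data. Named genes are members with a gene name, the spots beside each limit, further spots of the members' genes and the 2 lowest genes of a list. Spots chosen after their values were seen are those named for COII, Mbp and AI845066 and the control positions. Of 422 list genes, 341 were matched to a spot. Alternatives were another background, offset 10, print-tip loess, loess without block medians, the authors' ratios, either dye orientation, each replicate number left out, the scan day, a filter on dim spots and a replicate block. The comparisons outside column 12 and against MeA and SON alone were added after seeing the data. The clones' own sequences were not used here, and a few spots are not reported here by name.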

Additional observations from a re-analysis of the deposited data

Results flagged for a closer look

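The median of the members was above 0 on all 10 arrays in CeA, with a median over the members of 0.34, and below 0 on all 10 arrays in NAc (-0.94), Cg (-0.74) and SON (-0.30). In CeA and SON the opposite directions did not enter the rule one by one. The difference between these medians was not tested, and spot by spot the F test over the 5 other regions is given in the report.

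One array of Cg, replicate 4 with HAB in Cy5, stood apart from the other 9 in the median of the members, with -0.52 against -0.78 to -0.66. It was the only such array among 47 sets of 10 arrays, of which chance alone flags about 1 in 20. Without it, the median of the members in Cg was -0.74.

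Among spots outside the main measurement, 8 control positions met the rule, 7 of 1170 empty spots and 1 of 198 named controls. All lay in columns 20 and 21 of block 29, in rows 3 to 15. The Srr member lies in row 6 of column 20.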

How the results depend on the processing

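The count of spots that met the rule, with the named genes left out, was 73 in the main setting. It stayed between 55 and 98 under the alternatives of normalization, filter, left-out replicate number and scan day. Apart from the filter, how many of these spots were among the 73 was not counted. In the authors' ratios, 63 of the 73 had values on all arrays of NAc and Cg. The count was 211 with HAB in Cy3 alone and 222 with HAB in Cy5 alone, where fewer arrays have to lie below 0, and 43 outside column 12. Without 1 replicate number it was 81 to 94. The median of the members in NAc (-0.94) moved by more than the spread between arrays with print-tip loess (-0.74), with the authors' ratios (-0.64), with HAB in Cy5 alone (-0.78) and outside column 12 (-0.82), and the median in Cg (-0.74) with print-tip loess (-0.63) and the authors' ratios (-0.55). The direction remained the same in each. With 1 dye orientation alone, outside column 12 and without 1 replicate number, the sign was fixed by the rule. Leaving out 1 replicate number gave -0.93 to -0.89 in NAc and -0.75 to -0.71 in Cg. The median over the 5 other regions, -0.0087, was 0.0764 with HAB in Cy3 alone, and -0.02 to 0.02 without 1 replicate number. With Cg from the 1 scan day that holds both dye orientations, the median in Cg was -0.70 and the count 98.

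The 30 members with unequal differences over the 5 other regions fell to 17 with loess without block medians, where 99 in place of 258 of all spots passed, to 13 to 19 without 1 replicate number (70 to 102 of all spots) and to 17 of the 43 members outside column 12. With the authors' ratios, 646 of all spots passed. The replicate block left 14 members and 74 spots, but the number does not pair the arrays: same-numbered arrays of opposite dye correlated at -0.05 to 0.04 in their deviations, and 8 of 35 correlated best with their own number. The 41 brighter members became 20 outside column 12, 5 against MeA and SON alone, 35 to 39 without 1 replicate number and 41 with the replicate block. The causes of these shifts were not tested. Of 496 values of 20 named members in NAc or Cg under the alternatives, 480 moved by less than 1 SD over arrays, 16 by more, and 0 changed sign. Where a setting used a part of the same arrays (1 dye orientation, a left-out replicate number, the scan day), the sign was fixed by the rule. Signal near the empty spots limits what the dim further spots can show.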
